A study of Mus musculus with 8 samples.

Results

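Sialic acids are sugars that sit at the outer ends of glycoprotein and glycolipid chains on the cell surface, and the sialyltransferases are the Golgi enzymes that attach them. In development the best-known product of the family is polysialic acid, a long, negatively charged chain of sialic acids carried mainly by the neural cell adhesion molecule NCAM1, which weakens adhesion between cells and is abundant in the embryonic nervous system. The expression of 9 sialyltransferase genes (St8sia4, St8sia2, St8sia1, St3gal1 to St3gal5 and St6gal1) and of Ncam1 was followed in mouse embryonic fibroblasts (MEFs) with and without SLMAP3, which makes 10 of the 55401 genes in the deposited table. St8sia4 was chosen because its level differed between the genotypes in these same libraries, so its values are given as a description with no test. The other 9 genes were taken as its relatives or its substrate.

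The cells were grown from the bodies of B6C3F1 embryos at E14.5, without head and organs, and RNA from 4 SLMAP3-/- and 4 WT lines was sequenced with 1 library per line. Each line came from a different embryo. The knockout was global, by recombination of a floxed exon 3 of Slmap with a Cre driven by the CMV promoter, so that the loss of SLMAP3 preceded the culture. Lines of both genotypes were transfected with SV40 large T antigen after passage 2 and immortalized over at least 5 splits, so that each line is an immortalized population and none is an unmodified fibroblast. The total estimated count was 49879059 to 63322486 per line. Slmap, the targeted gene, was at 38.3 ± 4.94 CPM (counts relative to the library total, TMM-normalized; SD, n = 4) in the knockout and 137 ± 8.60 CPM in WT, and no line went against its label. Its log2 fold change was -1.84 (SE 0.11, adjusted p = 0.00119 by edgeR's quasi-likelihood test), and it was the only gene with an adjusted p under 0.05, which is 0.00647% of the 15461 genes tested. All 10 fibroblast markers passed the filter on low counts, with sums of 15700 to 21400 CPM in the knockout and 18600 to 23500 CPM in WT. Most of this was Fn1, Col1a1, Col1a2 and Vim, while Dcn and Lum were low, at 20 to 784 and 7 to 980 counts per line.

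Both polysialyltransferase genes had annotated RefSeq promoters, as did 7 of the 10 genes in all. For each gene shown, the window is 242 bases long and ends a few bases before the RefSeq start. The windows of St8sia4, at chr1:95667603-95667844, and of St8sia2, at chr7:74013691-74013932, are both on the minus strand in GRCm38.p6. They are shown because the enzymes make the same polymer, while the levels of their transcripts followed different patterns over the lines, as given below for each gene. The window of St6gal1, at chr16:23224490-23224731 on the plus strand before the most upstream of its 3 annotated starts, is shown because the transcript levels of St6gal1 and St8sia2 went together over the lines. Each is written 5′ to 3′ in the direction of its gene, and capitals mark the GC box, GGGCGG on either strand.
St8sia4: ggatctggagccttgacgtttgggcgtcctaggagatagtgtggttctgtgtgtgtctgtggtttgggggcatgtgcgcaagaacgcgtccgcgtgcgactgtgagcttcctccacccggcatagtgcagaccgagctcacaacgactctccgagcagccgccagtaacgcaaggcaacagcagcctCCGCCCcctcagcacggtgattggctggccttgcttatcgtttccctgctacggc
St8sia2: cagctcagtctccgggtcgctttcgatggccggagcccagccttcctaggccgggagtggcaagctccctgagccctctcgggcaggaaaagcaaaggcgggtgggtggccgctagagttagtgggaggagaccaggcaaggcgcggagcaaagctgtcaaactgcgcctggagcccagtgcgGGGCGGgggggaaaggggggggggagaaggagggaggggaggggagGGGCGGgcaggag
St6gal1: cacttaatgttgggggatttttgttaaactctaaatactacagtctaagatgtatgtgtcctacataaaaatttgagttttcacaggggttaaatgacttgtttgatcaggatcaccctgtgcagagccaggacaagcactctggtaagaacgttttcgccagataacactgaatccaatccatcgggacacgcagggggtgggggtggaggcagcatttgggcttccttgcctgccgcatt
The window of St8sia4 held 1 GC box, at 60.7% GC and with 18 CG dinucleotides. That of St8sia2 held 2 GC boxes, at 69.0% GC and with 14 CG dinucleotides, and that of St6gal1 held none, at 45.9% GC and with 5. Over the 32817 RefSeq promoter windows of the same length the median was 52.1% GC and 5 CG dinucleotides, and 31.6% held a GC box on either strand. The letters CCAAT on either strand, which 33.2% of all windows held, were found in the windows of St8sia4 and St6gal1 and not in that of St8sia2. TATAAA, present on either strand in 12.1% of windows, was in none of the 3. These matches describe the letters of the windows and were not tested for any factor.

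St8sia4 (ENSMUSG00000040710.10) encodes a polysialyltransferase that lengthens polysialic acid on NCAM1, and spans 79.89 kb of chromosome 1 (95587682 to 95667571, minus strand, GRCm38 as all gene positions here). It had 26, 58, 7 and 50 estimated counts in SLMAP3-/- replicates 1 to 4 and 2, 4, 1 and 1 in WT replicates 1 to 4. Every SLMAP3-/- line was above every WT line, and within the SLMAP3-/- lines replicate 3 was far below the other 3. In CPM the levels were 0.450, 1.16, 0.113 and 0.959 in SLMAP3-/- lines and 0.0323, 0.0774, 0.0189 and 0.0170 in WT lines. Among the 33915 genes with a count in any line, the lines of the genotypes did not overlap in 1.06%, a share from which nothing is read for a gene chosen on this contrast. In bulk RNA a larger number of cells that express a gene and more RNA per cell cannot be told apart.

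The mean level of St8sia4 was 0.671 ± 0.477 CPM in SLMAP3-/- and 0.0364 ± 0.0282 CPM in WT lines (SD, n = 4), a ratio of means of 18.4. The summed counts were 141 and 8, and their ratio per library size was 17.9. This ratio depended on single lines, and was 13.6 without SLMAP3-/- replicate 2 and 27.6 without WT replicate 2. The precision of single counts was low. Exact 95% Poisson intervals, which cover counting error only, were 44.0 to 75.0 counts for the highest line, SLMAP3-/- replicate 2, 2.81 to 14.4 for SLMAP3-/- replicate 3 and 1.09 to 10.2 for WT replicate 2. The gene reached the minimum level of the filter on low counts, 0.177 CPM, in 3 lines where 4 were needed, and so was not among the genes tested.

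Reads of St8sia4 can be shared with other genes. Its transcripts hold exact stretches of at least 31 bases in common with transcripts of 2909 other genes, the longest of 63 bases, and Salmon splits such reads by estimation. At 1 to 58 counts, how such reads were divided can change the value of a line, and this was not tested. The annotated gene within St8sia4 on the same strand, Gm37642, had 0 to 1 counts per line. This was at most 100% of the count of St8sia4, reached where St8sia4 itself had 1 count.

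**Figure D1:**
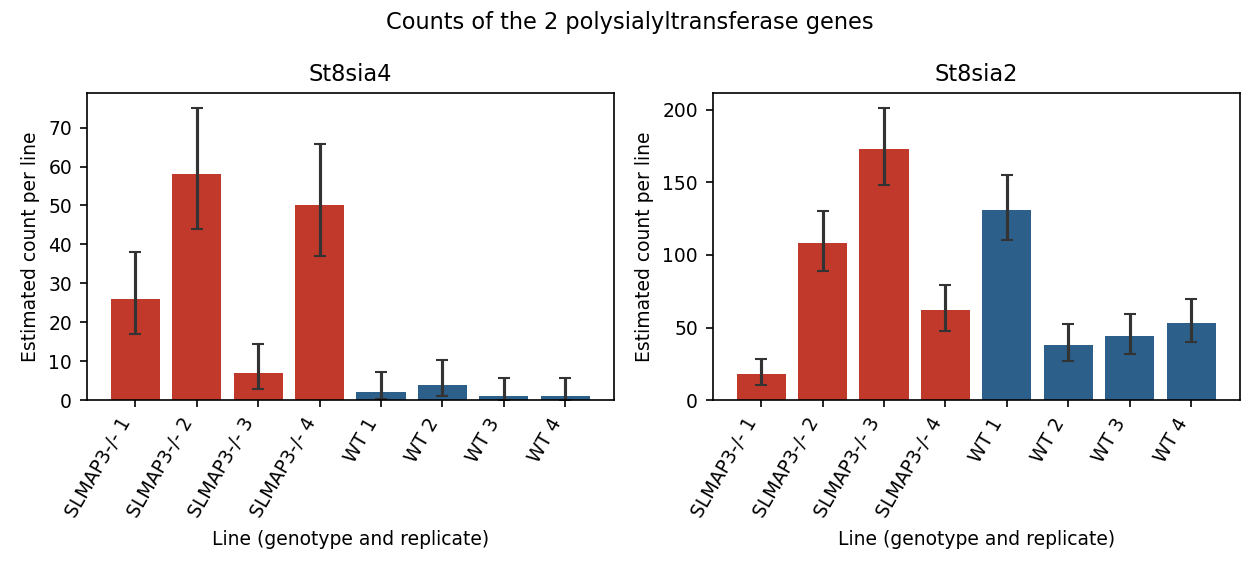
Estimated count per line (y axis) of St8sia4 (left) and St8sia2 (right) in the 4 SLMAP3-/- (red) and 4 WT (blue) lines, each bar 1 line, with exact 95% Poisson intervals that cover counting error only. St8sia4 is at 7 to 58 counts in SLMAP3-/- and 1 to 4 in WT lines, while the lines of the genotypes interleave for St8sia2, at 18 to 173 and 38 to 131 counts.

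St8sia2 (ENSMUSG00000025789.9, chromosome 7, 73939119 to 74013690, minus strand) encodes the other polysialyltransferase, which acts mostly in the embryo. It had 18, 108, 173 and 62 counts in SLMAP3-/- replicates 1 to 4 and 131, 38, 44 and 53 in WT replicates 1 to 4. The genotypes overlapped, since SLMAP3-/- lines were both the lowest and the highest of the 8. The mean level was 1.61 ± 1.09 CPM in SLMAP3-/- and 1.15 ± 0.648 CPM in WT lines (SD, n = 4). The log2 fold change of 0.49 (SE 0.63, 95% interval -0.75 to 1.73) did not pass the test, with an adjusted p of 1.00 by edgeR and p = 0.714 by an exact permutation of log2 CPM (two-sided), whose smallest possible p is 0.0286. The 95% intervals of log2 fold changes given here and below are normal approximations from the SE. They are narrower than intervals that match the quasi-likelihood test would be. The highest line was 8.92 times the lowest. Leaving out WT replicate 1, the highest WT line, gave a log2 fold change of 0.97, and leaving out SLMAP3-/- replicate 3 gave 0.084.

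The polysialyltransferases did not follow each other over the lines. SLMAP3-/- replicate 3 had the highest St8sia2 and the lowest St8sia4 of its genotype, and SLMAP3-/- replicate 1 the lowest St8sia2 of all lines together with 26 counts of St8sia4. Per kilobase of transcript, St8sia4 made up 43.6%, 22.3%, 2.12% and 30.2% of the St8sia4 and St8sia2 total in SLMAP3-/- replicates 1 to 4 and 0.811%, 5.33%, 1.20% and 1.00% in WT replicates 1 to 4. The share of St8sia4 per kilobase was thus below that of St8sia2 in each line at these transcript lengths, with SLMAP3-/- replicate 1 the closest to equal, and the share of St8sia4 in SLMAP3-/- replicate 3 lay inside the WT range. Of the counts themselves, without division by length, the share of St8sia4 was 59.1% (Wilson 95% interval 44.4% to 72.3%) in SLMAP3-/- replicate 1 and 3.89% (1.90% to 7.81%) in SLMAP3-/- replicate 3, so that in SLMAP3-/- replicate 1 the order of the pair depends on the length used. The WT lines had between 1.5% (0.413% to 5.32%) in replicate 1 and 9.52% (3.77% to 22.1%) in replicate 2. The summed level of both genes was 0.762, 3.32, 2.89 and 2.15 CPM in SLMAP3-/- and 2.15, 0.813, 0.852 and 0.918 CPM in WT lines, and here the genotypes overlapped.

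St8sia1 (ENSMUSG00000030283.7, chromosome 6, 142821545 to 142964452, minus strand) encodes GD3 synthase, which adds a further sialic acid to the ganglioside GM3. It had 0 counts in each of the 4 SLMAP3-/- lines and 1, 0, 2 and 3 counts in WT lines. A count of 0 allows up to 3 counts, or 0.0482 to 0.0600 CPM in these lines, and no WT line was above that number of counts. The transcript was therefore not detectable at a level at which the genotypes could be compared. A two-sided exact permutation test gave p = 0.143. It did not pass the filter on low counts, and its transcripts share exact stretches of 31 bases or more with those of 3213 other genes.

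The 5 ST3Gal enzymes attach sialic acid to terminal galactose, St3gal1 and St3gal2 mostly on O-glycans and glycolipids, St3gal3 and St3gal4 mostly on N-glycans, while St3gal5 is GM3 synthase, which opens the ganglioside pathway. St3gal2 (ENSMUSG00000031749.12, chromosome 8, 110919922 to 110972480, plus strand) was at 167.8, 148.7, 147.3 and 145.4 CPM in SLMAP3-/- replicates 1 to 4 and 121.5, 148.5, 146.2 and 150.8 CPM in WT replicates 1 to 4. Outside replicate 1 of each genotype the 6 lines lay within 145.4 to 150.8 CPM. Its log2 fold change was 0.10 (SE 0.096, 95% interval -0.085 to 0.29).

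St3gal5 (ENSMUSG00000056091.12, chromosome 6, 72097592 to 72154571, plus strand) was at 67.2, 53.7, 43.7 and 56.8 CPM in SLMAP3-/- and 38.6, 51.4, 59.5 and 58.3 CPM in WT lines, with a log2 fold change of 0.091 (SE 0.17, 95% interval -0.24 to 0.43). The extremes were replicate 1 of either genotype, SLMAP3-/- the highest and WT the lowest. St3gal4 (ENSMUSG00000032038.7, chromosome 9, 35046576 to 35119268, minus strand) was the steadiest of the 10 genes, at 26.2, 28.4, 25.3 and 27.6 CPM in SLMAP3-/- and 29.2, 29.1, 26.9 and 28.7 CPM in WT lines. Its highest line was 1.16 times its lowest, and its log2 fold change was -0.085 (SE 0.085, 95% interval -0.25 to 0.081). Its antisense gene 4930581F22Rik had 27 to 49 counts per line, at most 3.45% of the count of St3gal4.

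St3gal3 (ENSMUSG00000028538.12, chromosome 4, 117932154 to 118134914, minus strand) was at 16.6 ± 1.58 CPM in SLMAP3-/- and 16.6 ± 1.82 CPM in WT lines (SD, n = 4), between 15.1 and 19.2 CPM in all lines. The log2 fold change was -0.0034 (SE 0.12, 95% interval -0.25 to 0.24). St3gal1 (ENSMUSG00000013846.10, chromosome 15, 67102875 to 67176830, minus strand) varied more, at 16.3, 21.9, 17.9 and 11.1 CPM in SLMAP3-/- and 9.60, 19.3, 17.5 and 17.7 CPM in WT lines. Again the genotypes overlapped, and the log2 fold change was 0.068 (SE 0.26, 95% interval -0.45 to 0.59).

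St6gal1 (ENSMUSG00000022885.16, chromosome 16, 23224740 to 23360350, plus strand) encodes the main enzyme that caps N-glycans with sialic acid in the other linkage to galactose. It was at 4.50, 12.5, 24.0 and 10.4 CPM in SLMAP3-/- replicates 1 to 4 and 18.5, 11.5, 6.72 and 9.25 CPM in WT replicates 1 to 4. SLMAP3-/- lines again gave both extremes, the highest 5.33 times the lowest. The means were 12.8 ± 8.17 and 11.5 ± 5.06 CPM (SD, n = 4), with a log2 fold change of 0.16 (SE 0.49, 95% interval -0.80 to 1.12). Reads of an antisense gene, BC106179, which had 7 to 48 counts per line and at most 4.23% of the count of St6gal1, cannot be told apart from it if the counting ignored strand, which the sources used here do not give. The estimate was -0.33 without SLMAP3-/- replicate 3 and 0.49 without WT replicate 1.

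Ncam1 (ENSMUSG00000039542.16, chromosome 9, 49502136 to 49798925, minus strand), the carrier, was at 35.5, 52.0, 37.5 and 57.3 CPM in SLMAP3-/- replicates 1 to 4 and 76.1, 45.4, 39.9 and 39.3 CPM in WT replicates 1 to 4. WT replicate 1 stood above all other lines, and the other 3 WT lines lay within the SLMAP3-/- range. Its transcripts share exact stretches with those of 963 other genes, and those of St3gal5 with 1357, but each had at least 2052 counts in a line. The means were 45.6 ± 10.7 CPM in SLMAP3-/- and 50.2 ± 17.5 CPM in WT lines (SD, n = 4). Its log2 fold change of -0.14 (SE 0.25, 95% interval -0.63 to 0.35) became 0.14 when WT replicate 1 was left out. The lines with the highest St8sia4, SLMAP3-/- replicates 2 and 4, also had the highest Ncam1 among SLMAP3-/- lines, but over all 8 lines the Pearson correlation of log2 CPM was 0.113 (Spearman 0.143).

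Of the 8 genes that passed the filter, 0 rose and 0 fell by edgeR's quasi-likelihood test at an adjusted p under 0.05. At an unadjusted p under 0.05 the count was also 0 of 8, where 1.81% of all tested genes passed, and DESeq2 and limma-voom called 0 of them too. Each of the 8 had an adjusted p of 1.00. The permutation p-values, all two-sided and exact, ran from 0.143 for St3gal4 to 0.971 for St3gal3 and St6gal1. None had lines that did not overlap between the genotypes, against 1.25% of all tested genes, and none had a log2 fold change beyond 1 in size, against 2.74%. 5 estimates lay above 0 and 3 below, with a median of 0.080 beside -0.0014 over all tested genes. The approximate intervals differed widely in width, from -0.085 to 0.29 for St3gal2 to -0.75 to 1.73 for St8sia2, and each leaves out some values that the test would allow.

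**Figure D2:**
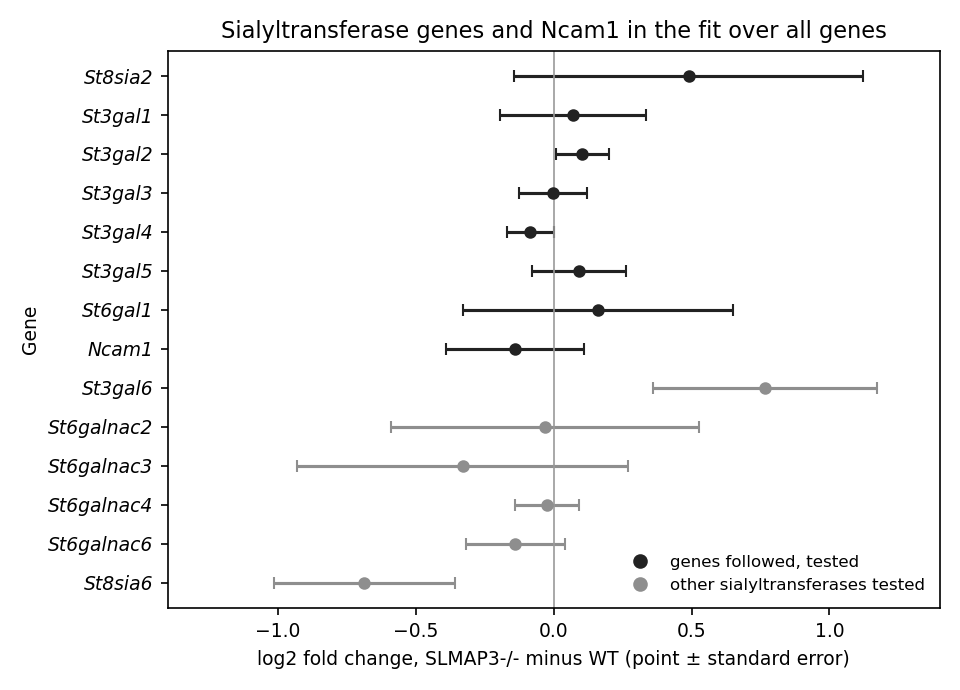
Log2 fold change of SLMAP3-/- minus WT lines (x axis; point and standard error, 4 lines per genotype) for the 8 genes followed here that passed the filter (black) and the 6 other sialyltransferase genes that passed it (grey). None reached an adjusted p under 0.05; the widest errors among the black points are those of St8sia2 (0.63) and St6gal1 (0.49).

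Levels of different genes were compared per kilobase of the longest coding transcript. St3gal2 was highest at 33.4 CPM per kb (27.6 to 38.2 over the 8 lines), followed by St3gal5 at 22.0 (15.8 to 27.6), St3gal4 at 13.2 (12.1 to 14.0), Ncam1 at 7.29 (5.41 to 11.6) and St3gal3 at 6.51 (5.93 to 7.55). Below them were St3gal1 at 2.86 (1.67 to 3.82) and St6gal1 at 2.70 (0.999 to 5.33). The polysialyltransferases came far lower, St8sia2 at 0.257 (0.0581 to 0.518) and St8sia4 at 0.0353 (0.0017 to 0.116), and St8sia1 was last at 0.0015 (0 to 0.0057). Ranges over lines overlapped between Ncam1 and St3gal3, between St3gal1 and St6gal1, between St8sia2 and St8sia4 and between St8sia4 and St8sia1, and the order within these pairs is not fixed beyond the spread. The other 5 neighbours in the order had separate ranges.

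Over the 9 sialyltransferase genes, with the longest coding transcript as length, St3gal2 held 39.8% to 42.7% of the summed CPM per kb in every line and St3gal5 22.7% to 30.8%. These shares depend on the length used. With the median length of coding transcripts, mean levels were 47.1 CPM per kb for St3gal4, 44.7 for St3gal2 and 36.7 for St3gal5. St8sia4 held 0.0143% to 0.139% in the knockout and 0.00203% to 0.00937% in WT. The summed level of the 9 genes was 78.5 to 89.4 CPM per kb in the knockout and 69.5 to 83.4 CPM per kb in WT, which overlapped.

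**Figure D3:**
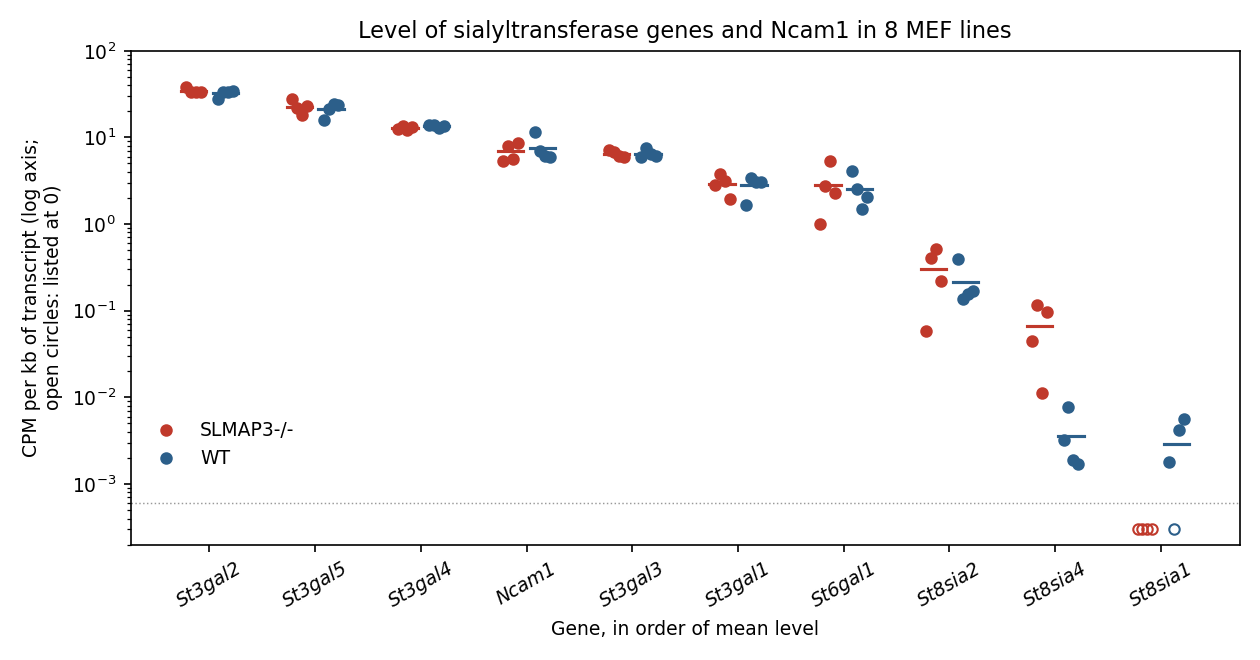
Level of each of the 10 genes (CPM per kb of the longest coding transcript, log axis) in 4 SLMAP3-/- (red) and 4 WT (blue) lines; points are lines, bars are means, and open circles below the dotted line are lines at 0 counts. Genes run from St3gal2 at a mean of 33.4 to St8sia1 at 0.0015, the lines of the genotypes overlap for the first 8 genes, and St8sia4 and St8sia1 are the lowest, at 1 to 58 and 0 to 3 counts per line.

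The spread between lines of a genotype, as the pooled SD of log2 CPM (prior count 2), separated the genes into variable and steady ones. St8sia2 had an SD of 1.07, St8sia4 of 1.03 and St6gal1 of 0.82, at percentiles 92.2, 91.6 and 86.9 of the tested genes, whose median was 0.28. St8sia4 and St8sia2 also had low counts, and what counting error adds to their SD was not tested. The SD of St8sia4 was 1.37 in SLMAP3-/- and 0.51 in WT lines. At 1 to 4 counts in WT lines the prior count narrows the spread. St8sia4 is placed beside the tested genes without being one of them. At the other end St3gal4 had an SD of 0.066, at percentile 1.35, St3gal2 of 0.12 and St3gal3 of 0.14. St3gal1 (0.44), Ncam1 (0.40) and St3gal5 (0.27) lay between them.

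Some pairs of these genes moved together from line to line, and some in opposite directions. St6gal1 and St8sia2 had a Pearson correlation of log2 CPM of 0.911 over the 8 lines (Spearman 0.833). It was 0.728 without the 2 lines farthest from the median of St8sia2. St6gal1 and St3gal5 went in opposite directions, at -0.914 (Spearman -0.952), and -0.943 without the 2 lines farthest from the median of St3gal5. The line with the most St6gal1, SLMAP3-/- replicate 3, had 24.0 CPM of St6gal1, 2.78 CPM of St8sia2 and 43.7 CPM of St3gal5, while SLMAP3-/- replicate 1 had 4.50, 0.312 and 67.2 CPM of the same genes. St8sia2 and St3gal5 were at -0.793 (Spearman -0.667). The correlation of St3gal2 with St3gal5, 0.836, fell to 0.0062 without the 2 lines farthest from the median of St3gal2. Without the same 2 lines that of St3gal2 with Ncam1, -0.84, became -0.35. That of St3gal1 with Ncam1, -0.696, became 0.971 without the 2 lines farthest from the median of St3gal1. The pairs named include the highest and the lowest correlation among all pairs compared. How often such values arise by chance was not tested. All these correlations are descriptions over 8 lines that share libraries and normalization.

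**Figure D4:**
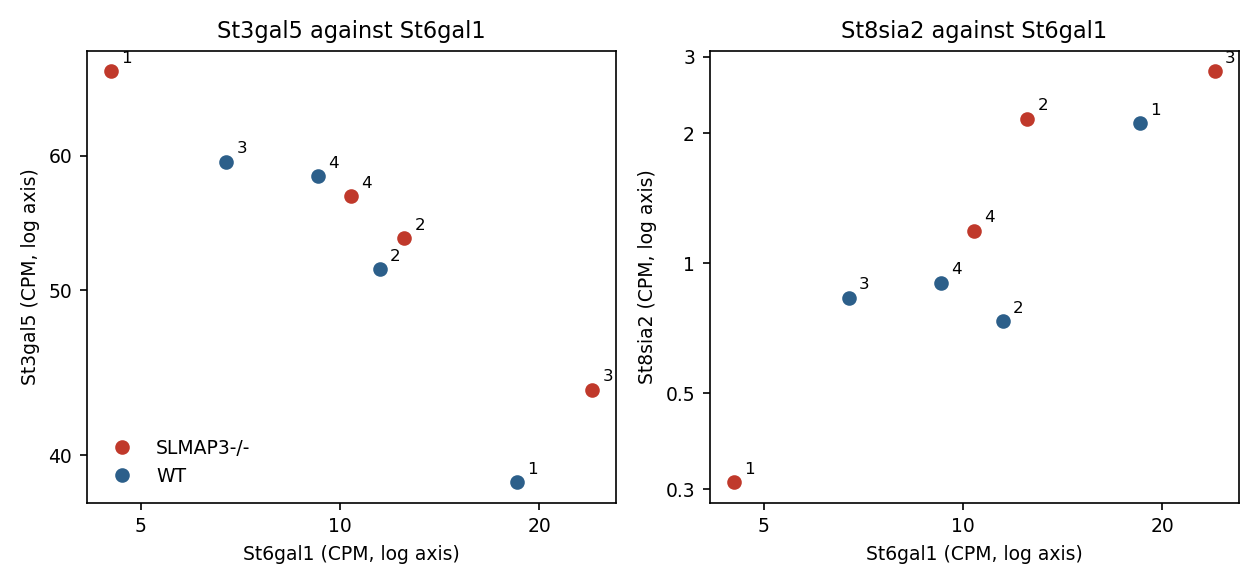
CPM of St3gal5 (left) and of St8sia2 (right) against CPM of St6gal1 in the 8 lines, all axes logarithmic, points coloured by genotype (SLMAP3-/- red, WT blue) and numbered by replicate. St6gal1 runs from 4.50 CPM in SLMAP3-/- replicate 1 to 24.0 CPM in SLMAP3-/- replicate 3. St3gal5 is lower where St6gal1 is high in both genotypes. St8sia2 rises with St6gal1 over the SLMAP3-/- lines. Among WT lines St8sia2 is high only in replicate 1, at 2.11 CPM. The other WT lines are at 0.735 to 0.901 CPM and do not follow the order of St6gal1.

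The genes most like St8sia4 over the 8 lines, by Pearson correlation of log2 CPM among the 15461 tested genes, were Gm38077 (0.977), Gm48838 (0.963), C79130 (0.923), the cytokine receptor gene Il27ra (0.922) and the kinase gene Dapk3 (0.919). These 5 were the only genes at 0.9 or more. They are the highest of 15461 values over 8 lines, and how many genes reach 0.9 by chance was not tested. St8sia4 was also chosen on its difference between these same lines, so nothing is read from the ranking about shared control. Dapk3, at 41.1 CPM in SLMAP3-/- and 38.6 CPM in WT lines, and Gm38077, at 2.62 and 1.91 CPM, were the more abundant of them, and the other 3 had means under 1 CPM. By Spearman's rho, 1 of these 5 genes was again among the first 5. For Ncam1 the closest genes were Baz1a (0.983), Anapc1 (0.977), Rbm27 (0.975), Btaf1 (0.969) and Drosha (0.960), and 76 genes reached 0.9. By Spearman's rho, 1 of these 5 was again among the first 5. WT replicate 1 was the highest line for Ncam1, at 76.1 CPM. What the correlations with Ncam1 owe to that line or to chance was not tested.

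Of the other sialyltransferases, 6 of 11 genes passed the filter, with 0 called in either direction. At an unadjusted p under 0.05 by edgeR the count was also 0, where 1.81% of all tested genes passed. St3gal6, another enzyme of the ST3Gal group, was at 4.06 ± 1.72 CPM in SLMAP3-/- and 2.39 ± 0.936 CPM in WT lines (log2 fold change 0.77, SE 0.41), and the lines overlapped. St8sia6, which adds sialic acid to sialic acid mostly on O-glycans, was at 0.458 ± 0.0986 and 0.740 ± 0.254 CPM (-0.69, SE 0.33). St6galnac6 (-0.14, SE 0.18) and St6galnac4 (-0.025, SE 0.12), which act on gangliosides and O-glycans, were the most abundant of this list together with St6galnac2 (-0.032, SE 0.56), and St6galnac3 was at -0.33 (SE 0.60). The annotation holds 2 entries named St6galnac2, and the value is that of the entry with more counts. The untested St6gal2, St6galnac1, St6galnac5, St8sia3 and St8sia5 had at most 23 counts in any line.

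All 6 genes that make, activate or move sialic acid passed the filter, and 0 were called. Slc35a1, the Golgi carrier for activated sialic acid, was at 0.16 (SE 0.13) on the log2 scale. Cmas, which activates it, was at 0.038 (SE 0.14), and Nans, which makes its precursor, at 0.026 (SE 0.10). Slc17a5, the lysosomal exporter, was at -0.055 (SE 0.27). In the list of 7 genes of sialic acid removal and breakdown, 5 passed the filter and 0 were called. Neu1, the lysosomal sialidase, was at a log2 fold change of -0.16 (SE 0.26), its partner Ctsa at 0.13 (SE 0.15), Neu3, the membrane sialidase, at -0.14 (SE 0.23) and Renbp at -0.013 (SE 0.47). Neu2 and Neu4 were not tested, with at most 6 counts in a line.

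Other carriers of polysialic acid and relatives of NCAM1 were measured as well. Of 9 genes, 6 passed the filter and 0 were called. Nrp2, a semaphorin and VEGF receptor that carries polysialic acid, was at 333 ± 106 CPM in SLMAP3-/- and 380 ± 112 CPM in WT lines (SD, n = 4), a log2 fold change of -0.19 (SE 0.30). Glg1 was at 383 ± 29.9 and 379 ± 31.2 CPM (0.013, SE 0.099). The adhesion molecule genes L1cam (0.11, SE 0.39) and Cadm1 (-0.26, SE 0.95) varied between lines, the latter from 9 to 296 counts. Chl1, a close homologue of L1cam, had the largest estimate at 1.23 (SE 0.88), from 102, 54, 2 and 24 counts in SLMAP3-/- and 10, 16, 24 and 29 counts in WT lines, which overlap. Ncam2, Cd36 and Ccr7 were not tested, with at most 5 counts in a line.

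The enzymes on either side of the ST3Gal step were present and not called. All 10 ganglioside and lactosylceramide genes passed the filter, with B4galt5, the lactosylceramide synthase, at 55.5 ± 13.7 and 73.2 ± 17.3 CPM (-0.40, SE 0.22) and B4galnt1, which makes GM2 from GM3, at 33.9 ± 6.74 and 26.8 ± 5.79 CPM (0.34, SE 0.20). B3galt4 was at 0.27 (SE 0.31), and the lysosomal hydrolase Hexa at 0.0008 (SE 0.17). All 16 genes of N- and O-glycan acceptors passed and 0 were called. An unadjusted p under 0.05, which 1.81% of all tested genes had by edgeR, was found for 1 of the 16. This was Gcnt1, which branches O-glycans, at 2.65 ± 0.513 CPM in SLMAP3-/- and 5.62 ± 4.19 CPM in WT lines (log2 fold change -1.09, SE 0.48, edgeR adjusted p = 1.00). Its counts were 111, 133, 192 and 152 in SLMAP3-/- and 169, 148, 277 and 686 in WT lines, and without WT replicate 4 the estimate was -0.45. The other genes named by size of change, B3gnt2 (-0.30, SE 0.15) and B4galt3 (0.22, SE 0.13), and by level, Mgat2 (-0.068, SE 0.10), Man2a1 (0.11, SE 0.22) and B4galt1 (0.12, SE 0.10), did not pass the test. In none of the 6 lists was there a tested gene whose lines did not overlap between the genotypes, where 1.25% of all tested genes had such lines, a share too small to set lists of this size apart.

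Markers of other cell types in which polysialic acid or its enzymes are known were read in the same lines, and their part in the level of St8sia4 was not tested. Of 8 neuronal markers 5 passed the filter, with a summed 99.2 to 206 CPM in SLMAP3-/- and 134 to 304 CPM in WT lines, most of it Map2 and Stmn2, while Dcx and Snap25 had at most 3 counts in a line. Of 5 neural crest and Schwann cell markers 2 passed, with a summed 0.433 to 1.30 and 0.629 to 1.27 CPM, and Sox10 and Foxd3 had at most 3 counts. The 7 immune markers, of which 2 passed, summed to 0.755 to 1.48 CPM in SLMAP3-/- and 0.587 to 1.16 CPM in WT lines. Csf1r had the highest mean of them, 0.682 CPM over all lines. The pan-leukocyte gene Ptprc had 0, 9, 1 and 1 counts in SLMAP3-/- and 0, 1, 2 and 2 counts in WT lines. For epithelial markers, 3 of 5 passed, and the sums were 1.47 to 4.62 and 1.10 to 4.68 CPM. For endothelial markers, 2 of 4 passed, and the sums of 16.5 to 40.5 and 9.45 to 27.5 CPM were mostly Kdr. Of 5 skeletal muscle markers 1 passed, at 0.173 to 0.353 and 0.290 to 0.442 CPM, with Myod1 at 0 in all lines. In each list the ranges of the genotypes overlapped, and none of the markers had an adjusted p under 0.05 by edgeR. At an unadjusted p under 0.05, where 1.81% of all tested genes passed, were the endothelial Tek and the fibroblast marker Col1a1. Tek was at 2.11 to 12.2 CPM in SLMAP3-/- and 1.55 to 4.76 CPM in WT lines. Col1a1 was at 4508 to 5687 and 5474 to 7010 CPM.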

How the data were processed

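RNA was sequenced from 4 SLMAP3-/- and 4 WT immortalized MEF lines with stranded mRNA libraries. The authors assigned reads to the GENCODE M25 transcriptome of GRCm38 with Salmon and deposited an estimated count per gene and line, adjusted for the length of the transcripts and without normalization across lines; Salmon's version and strand setting are not given in the sources used here. Columns of the authors' DESeq2 comparison (fold changes and p-values) were not used.

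Estimated counts were rounded. All genes were fitted with edgeR 4.0.16 (R 4.3.3), using filterByExpr (minimum count 10), TMM normalization, the quasi-likelihood test of genotype without covariates and Benjamini-Hochberg adjustment over 15461 tested genes (threshold 0.05). CPM are TMM-normalized, and log2 CPM used a prior count of 2. DESeq2 1.42.0, limma-voom (limma 3.58.1), other filters and size factors, the replicate number as a block and leaving out each line were alternatives. The fits were tested on simulated data first. Exact permutation tests and intervals on counts used scipy 1.17.1 in Python 3.11.15. Intervals of log2 fold changes are normal approximations from the SE of the edgeR fit. Each line had 49879059 to 63322486 estimated counts in total; intervals on counts cover counting error only, and reads without molecular identifiers are not independent molecules.

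The genes followed and the gene lists were chosen with earlier results of these data known. The genes named are the 10 genes followed, Slmap, from each list the genes past the threshold, those whose lines did not overlap, the 3 with the largest change and the 3 with the highest level per kb, and the 5 most like St8sia4 and Ncam1; some genes this rule gave are not reported here. Other genes named, such as single markers and untested genes, only complete a count. Gene positions, transcript lengths and shared stretches of at least 31 bases came from GENCODE M21, also on GRCm38, and promoter windows from RefSeq of GRCm38.p6.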

Additional observations from a re-analysis of the deposited data

Results flagged for a closer look

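Among 85 groups of 4 lines, 1 line lay outside the range of the other 3 by more than Dixon's 95% critical value allows in 6, where chance gives about 4.25. For St8sia2, WT replicate 1 was at 2.11 CPM and the other WT lines at 0.735 to 0.901 CPM. In WT replicate 1 St3gal2 was also low, at 122 CPM beside 146 to 151 CPM, and Ncam1 was high, at 76.1 CPM beside 39.3 to 45.4 CPM. Nans was high in the same line, at 89.6 CPM beside 75.5 to 77.5 CPM. Thus 4 of the 6 values came from WT replicate 1. St3gal2 was high in SLMAP3-/- replicate 1, at 168 CPM beside 145 to 149 CPM. Nrp2 was low in WT replicate 2, at 213 CPM beside 426 to 443 CPM.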

How the results depend on the processing

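Of the 9 genes other than St8sia4, 0 were called under any of 14 alternatives, and each of the 6 lists also stayed at 0 under those tried on it. Without the filter on low counts 1 of the 9, St8sia1, had an unadjusted p under 0.05 by edgeR, as had 790 of all 33915 genes in that fit. Over all genes, 1 was called by edgeR, 11 by DESeq2 and 0 with the replicate number as a block, where Slmap kept a log2 fold change of -1.84 with an adjusted p of 0.171. The replicate numbers do not pair the lines: deviations of same-numbered lines correlated at -0.157, 0.0585, 0.187 and -0.00323. With other size factors the median log2 fold change of all genes stayed within 0.01 of 0.

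Of 112 log2 fold changes of the 8 tested genes under alternatives, 12 had the other sign. They belonged to St3gal1 (2), St3gal3 (5), St3gal5 (2), St6gal1 (2) and Ncam1 (1). Without single lines the log2 fold change ranged from 0.084 to 0.97 for St8sia2, from -0.33 to 0.49 for St6gal1 and from -0.27 to 0.14 for Ncam1. In the order of levels 5 neighbours had separate ranges; with the median length of coding transcripts 2 had, and St3gal4 came first. Depth limits St8sia4 and St8sia1 most, at 1 to 58 and 0 to 3 counts per line.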
